A study of Mus musculus with 4 samples.

Results

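Macrophages that live inside pancreatic islets were followed through 10 genes that mark them, Lyz2, Adgre1, Cd68, Csf1r, C1qa, C1qb, C1qc, Cd74, H2-Aa and H2-Ab1. The genes were chosen by name out of the 54532 genes in the deposited table, and all 10 were found and were high enough to be compared, meaning at least 1 FPKM (reads in a gene scaled to its length and to the library's total) in at least 2 libraries. RNA came from islets of C57BL/6 males aged 10 to 12 weeks. The 2 transgenic libraries, numbered 1 and 2, came from mice whose beta cells overexpress the microRNAs miR-29a and miR-29b-1. The other 2, also numbered 1 and 2, came from wild-type mice. The labels name neither the promoter that drives the transgene nor the number of mice behind a library, so the p-values below measure no more than how these libraries vary, and that variation may be technical. The question of the comparison is which islet transcripts differ when beta cells make more of these microRNAs.

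Islet macrophages sit beside the capillaries, take up secretory granules of beta cells and present peptides from them to T cells. They depend on the receptor that Csf1r encodes for survival. Their common markers fall into 3 groups by role: the surface and lysosomal proteins of the lineage, the 3 chains of complement C1q, which macrophages secrete and which starts the classical complement cascade, and the class II antigen presentation genes, whose products load and display peptides. Dendritic cells and B cells also express the class II genes, and neutrophils and monocytes also express Lyz2. In RNA of whole islets, fewer macrophages and less RNA of a gene per macrophage cannot be told apart.

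The mature microRNAs of the transgene share a seed, the stretch of bases 2 to 8 that pairs with target messages. They are shown here because the search for targets among the macrophage genes rests on that seed, in capitals, in sequences from RefSeq on GRCm38.p6.
mmu-miR-29a-3p: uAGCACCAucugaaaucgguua
mmu-miR-29b-3p: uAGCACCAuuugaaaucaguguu
The 7 bases that pair with this seed, TGGTGCT, were searched for in the longest annotated 3' UTR of each gene. Of the 10 macrophage genes 0 held a match, against 16.8% of the 10735 genes compared that have a 3' UTR of at least 50 bases. The macrophage genes' 3' UTRs are mostly short, with lengths of 161 bases in Cd68 to 793 in Lyz2 and 1672 in Csf1r, against a median of 1367 bases. The lack of a match says only that these letters are not in these windows.

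A RefSeq promoter sequence was at hand for 5 of the 10 genes. The 150 bases before the start are shown for a class II gene and a C1q gene, to show the letters of 1 gene from each of these groups. Capitals mark the X2 box core (TGACGTCA) and the Y box core (CTGATTGG) in H2-Aa, letters that class II promoters are known for, and the core that the myeloid factor PU.1 prefers (GAGGAA) in C1qb.
H2-Aa: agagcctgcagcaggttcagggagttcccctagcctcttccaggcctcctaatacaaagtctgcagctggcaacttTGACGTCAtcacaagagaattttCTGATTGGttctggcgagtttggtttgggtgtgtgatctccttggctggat
C1qb: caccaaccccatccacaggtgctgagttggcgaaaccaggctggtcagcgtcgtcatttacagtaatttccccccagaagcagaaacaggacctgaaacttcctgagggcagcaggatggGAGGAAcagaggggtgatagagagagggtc
The H2-Aa window is chr17:34287824-34287973 and the C1qb window chr4:136886201-136886350, both on the minus strand of GRCm38.p6. On either strand of the 250 bases before a start, TGACGTCA is in 1.62% of 27025 promoters, CTGATTGG in 4.07% and GAGGAA in 23.1%. The last was also found in C1qc and Cd68, and H2-Aa alone of the 5 held either class II motif. The CCAAT core (ATTGG, part of the Y box core) is in 34.5% of promoters and was found in Cd68 and H2-Aa, and the AP-1 site (TGAGTCA) is in 4.43% and was found in Cd68. The matches describe the letters and are not shown to be bound.

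Reads in genes, recovered from the FPKM, came to between 21670854 and 27080907 per library. The miR-29a and miR-29b-1 loci held 0 reads in both transgenic libraries and at most 3 in wild-type ones, and mature microRNAs are too short for such libraries, so these loci check neither the labels nor the transgene's level. Libraries of the same number lay together: number 2 stood apart from number 1 in both genotypes on the leading principal component, which held 77.9% of the variance. Acinar markers, genes of the exocrine cells around islets, summed to 1524 and 877 FPKM in the libraries numbered 2 (transgenic, then wild type) and to 5529 and 4123 FPKM in those numbered 1. Fold changes are therefore also given within each number.

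The macrophage label was checked against markers of cells that share these genes. The lineage-defining Csf1r, Adgre1 and Cd68 were detected in each library, with 36 to 287 reads. T and NK cell markers summed to 0.128 to 0.205 FPKM over 8 genes in transgenic and 0.122 to 0.134 FPKM in wild-type libraries, and Cd3e had 0 reads throughout. Neutrophil markers summed to 0.498 to 0.598 FPKM and 0.118 to 0.648 FPKM, with Ly6g, Mpo and Elane at 0 reads in the 4 libraries. Dendritic cell markers summed to 0.845 to 0.879 FPKM and 0.945 to 1.04 FPKM over 8 genes. Of these Zbtb46, a transcription factor gene of dendritic cells, had 75 and 73 reads in transgenic and 57 and 85 in wild-type libraries. That was more reads than Cd68 in each library, but per length Zbtb46 lay lower, at 0.281 to 0.408 FPKM against 1.29 to 2.04. Flt3 had 2 to 8 reads. B cell markers summed to 6.32 to 6.78 FPKM and 5.11 to 8.34 FPKM, of which Cd79a held most, with 209 and 178 reads in transgenic and 143 and 294 in wild-type libraries, more than Adgre1 or Cd68 in each library, while the defining marker Ms4a1 had 0 to 2 reads. Further macrophage genes were present at low levels, among them Cx3cr1 with 20 to 35 reads, Mertk with 47 to 70 and the monocyte receptor gene Ccr2 with 10 to 20. Others were nearly absent, with 1 to 3 reads for Itgam, 3 to 5 for Siglec1, 0 to 5 for Folr2 and 0 to 12 for Cd163. Macrophage markers were thus detected beside some markers of B cells and dendritic cells, whose part in the class II values was not tested. The data do not say whether the macrophages are resident or newly arrived.

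**Figure D1:**
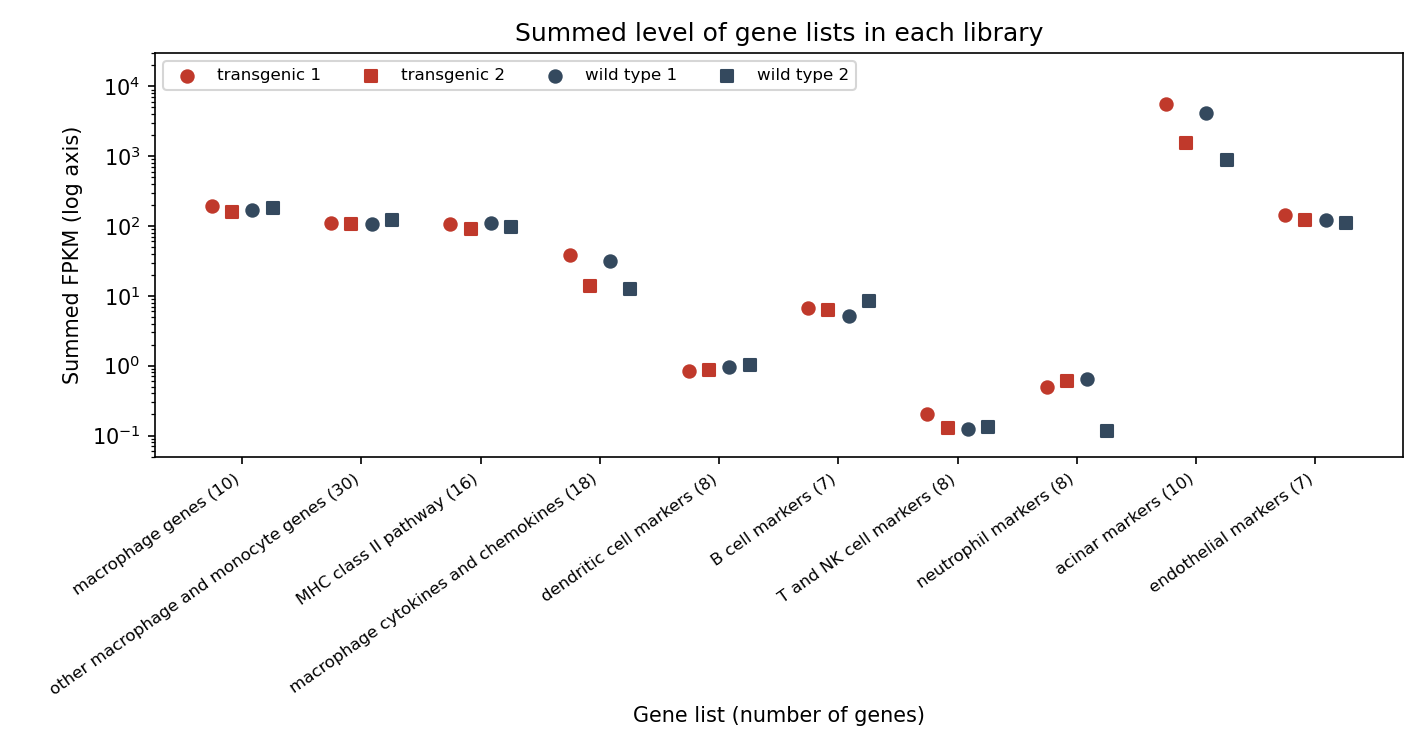
Summed FPKM of the macrophage genes and of lists of related genes and other cell types, on a log axis, for transgenic 1 and 2 and wild type 1 and 2 (number of genes in brackets). The 10 macrophage genes sum to 156 to 193 FPKM in each library, T and NK, dendritic and neutrophil markers lie at 0.118 to 1.04, and acinar markers and macrophage chemokines are higher in the libraries numbered 1.

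Levels per length were highest for Cd74, at 40.4 to 80.8 FPKM, and lowest for Adgre1 and Cd68, at 0.874 to 2.04 FPKM. Ranked by FPKM, which is per length, Cd74 came highest in each library, followed by C1qa, H2-Aa, H2-Ab1, C1qb, Lyz2, C1qc and Csf1r. Cd68 and Adgre1 came last and changed places in wild type 2. Some neighbours in this order lay within each other's counting error: in transgenic 2 Cd74 was at 40.4 FPKM (95% exact Poisson interval 38.2 to 42.8) and C1qa at 40.3 (37.7 to 43.1), and in wild type 2 they were at 46.0 and 45.9. Cd74 was above the level of 93.7% to 97.3% of the genes compared, and Adgre1 above 2.65% to 11.3%. These intervals cover counting error only.

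**Figure D2:**
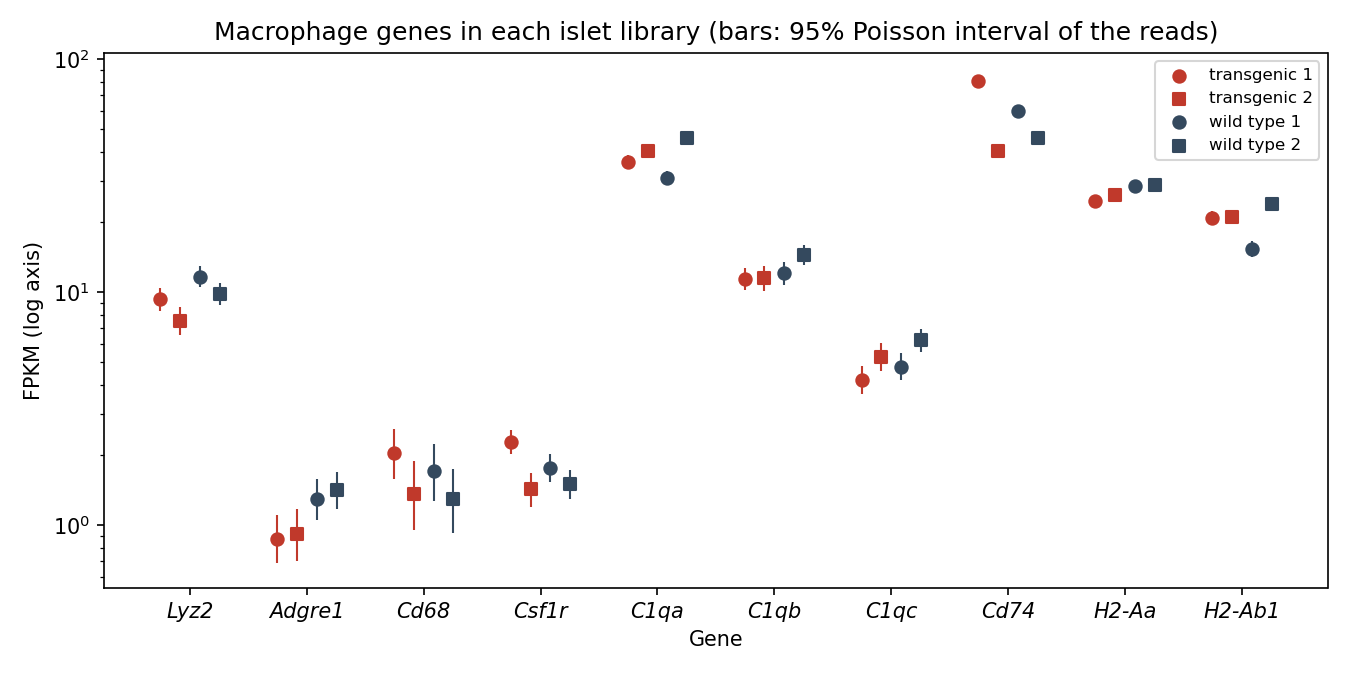
FPKM of each macrophage gene on a log axis in transgenic 1 and 2 (red) and wild type 1 and 2 (blue), with circles for number 1, squares for number 2 and bars for the 95% Poisson interval of the reads. Adgre1, Lyz2, C1qb and H2-Aa lie lower in both transgenic libraries than in both wild-type ones, while Cd74 is highest in the libraries numbered 1.

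In the comparison of genotypes, Lyz2 and Adgre1 had values in the transgenic libraries below both wild-type ones, as 9.03% of all genes compared did, and Cd68 and Csf1r overlapped. On GRCm38, Lyz2 lies on chromosome 10 at 117277331 to 117282321, Adgre1 on chromosome 17 at 57358691 to 57483527, Cd68 on chromosome 11 at 69664213 to 69666153 and Csf1r on chromosome 18 at 61105572 to 61132149. Adgre1 encodes F4/80, an adhesion receptor by which mouse macrophages are usually stained. It was at 0.874 and 0.911 FPKM in transgenic 1 and 2 and at 1.29 and 1.42 FPKM in wild type 1 and 2. It thus entered the comparison only through the wild-type libraries, where it reached 1 FPKM. The groups did not overlap, and the ratio of transgenic over wild type was 0.676 in number 1 and 0.643 in number 2. These values rest on 73 and 62 reads in transgenic and 100 and 119 in wild-type libraries, and the counting intervals of transgenic 1 (0.685 to 1.10) and wild type 1 (1.05 to 1.57) overlap. The log2 fold change, on log2(FPKM + 1), was -0.32 ± 0.17 (standard error, n = 2 per group), with a 95% interval of -0.77 to 0.14 (limma, adjusted p = 1.00, unadjusted 0.131). On the reads themselves, without the added 1, the fold was -0.60 (voom in limma), so the log2(FPKM + 1) scale understates it. The same holds for the folds of Cd68 (0.20 by voom) and Csf1r (0.17), which leaned the other way.

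Lyz2, which encodes the lysozyme of macrophages, lay at 9.34 and 7.56 FPKM in transgenic 1 and 2, against 11.7 and 9.82 in wild type 1 and 2. The genotypes did not overlap, with ratios of 0.800 in number 1 and 0.770 in number 2, and the log2 fold change was -0.32 ± 0.17 (95% interval -0.78 to 0.14; limma adjusted p = 1.00). Its counting intervals in transgenic 1 (8.34 to 10.4) and wild type 2 (8.79 to 10.9) do overlap. The near copy of Lyz2, Lyz1, which encodes the lysozyme of Paneth cells, had at most 1 read. How reads that match both genes were counted is not given, so Lyz2 reads left uncounted cannot be told from this. Csf1r, the receptor for colony stimulating factor 1, was at 2.28 and 1.42 FPKM in transgenic 1 and 2 and at 1.76 and 1.50 in wild type 1 and 2, so the genotypes overlapped (log2 fold change 0.10 ± 0.21, limma adjusted p = 1.00). Its 3' end overlaps Hmgxb3 on the other strand, with 501 to 746 reads in that gene, and whether counting used strand is not given. Cd68, a lysosomal membrane protein, had 66 and 36 reads in transgenic and 51 and 42 in wild-type libraries. That came to 2.04 and 1.36 FPKM in transgenic and 1.70 and 1.29 in wild-type libraries, again overlapping (0.11 ± 0.21).

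The C1q genes lie side by side on chromosome 4, C1qb at 136880129 to 136886187, C1qc at 136889804 to 136893065 and C1qa at 136895917 to 136898803, all on the minus strand of GRCm38. C1qa was at 36.4 and 40.3 FPKM in transgenic 1 and 2 and at 30.9 and 45.9 in wild type 1 and 2. The transgenic values sit between the wild-type ones, and the means, 38.4 ± 2.77 and 38.4 ± 10.6 FPKM (SD, n = 2 each), differed by far less than either spread. C1qb was at 11.4 and 11.5 FPKM in transgenic and 12.1 and 14.5 in wild-type libraries, which do not overlap. Its counting intervals in transgenic 2 (10.1 to 12.9) and wild type 1 (10.8 to 13.5) do overlap. Its fold change was -0.19 ± 0.15 (95% interval -0.60 to 0.21; limma adjusted p = 1.00). C1qc lay at 4.20 and 5.27 FPKM in transgenic 1 and 2 and at 4.79 and 6.21 in wild type 1 and 2. It was lower in the transgenic library of each number, with ratios of 0.876 and 0.849, but overlapped across numbers (-0.18 ± 0.18).

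Among the class II genes, Cd74 encodes the invariant chain that fills and guides class II molecules, and H2-Aa and H2-Ab1 encode the chains of the I-A molecule. On GRCm38, Cd74 lies on chromosome 18 at 60803848 to 60812646, and H2-Aa (34282744 to 34287827) and H2-Ab1 (34263209 to 34269418) lie close together on chromosome 17. Cd74 was at 80.8 and 40.4 FPKM in transgenic 1 and 2, against 60.0 and 46.0 in wild type 1 and 2. The transgenic library was thus higher in number 1, by a ratio of 1.35, and lower in number 2, by 0.879. Over all libraries the fold was 0.12 ± 0.38, the widest error of the 10. H2-Aa was steady within genotypes, at 24.6 and 26.3 FPKM in transgenic and 28.5 and 28.8 in wild-type libraries. These groups did not overlap (-0.17 ± 0.14, 95% interval -0.55 to 0.22; limma adjusted p = 1.00). The counting intervals of H2-Aa in transgenic 2 (24.7 to 27.9) and wild type 1 (27.0 to 30.1) do overlap. H2-Ab1 lay at 20.8 and 21.0 FPKM in transgenic 1 and 2 and at 15.3 and 23.9 in wild type 1 and 2. Its transgenic values were inside the wild-type range (0.12 ± 0.25).

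For the 10 genes, limma called none in either direction between genotypes (0 of 10 with an adjusted, and 0 with an unadjusted, p below 0.05). It called 0% of all 12716 genes compared, and 83 of them (0.653%) had an unadjusted p below 0.05. By voom, run on the reads, 0 genes (0%) were called and 32 (0.252%) had such an unadjusted p. Groups did not overlap for 4 of the 10, all lower in transgenic islets (Lyz2, Adgre1, C1qb and H2-Aa). Of all genes compared 9.03% were lower in this way and 12.2% higher. Adgre1 reached 1 FPKM only in wild-type libraries, so its place among the genes compared is tied to this direction. For each of these 4 genes the counting intervals of the nearest transgenic and wild-type libraries overlap. In both numbers 5 were lower, these 4 and C1qc, and 1 was higher, Cd68, against 27.4% and 33.5% of all genes. Directions in the numbers were opposite for 4, Csf1r, C1qa, Cd74 and H2-Ab1, against 38.9% of all genes. Of the acinar markers 9 of 9 compared had higher values in the transgenic library of both numbers, with 0 called (limma), and their part in the differences of the macrophage genes was not tested. The macrophage genes' median log2 fold change was -0.07, with 0.05 in number 1 and -0.18 in number 2, and that of all genes compared was 0.01. The 95% intervals of single genes reach from fold changes of 0.534 to 2.21 for Cd74 and of 0.661 to 1.16 for C1qb, so the missing calls do not show equal levels.

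**Figure D3:**
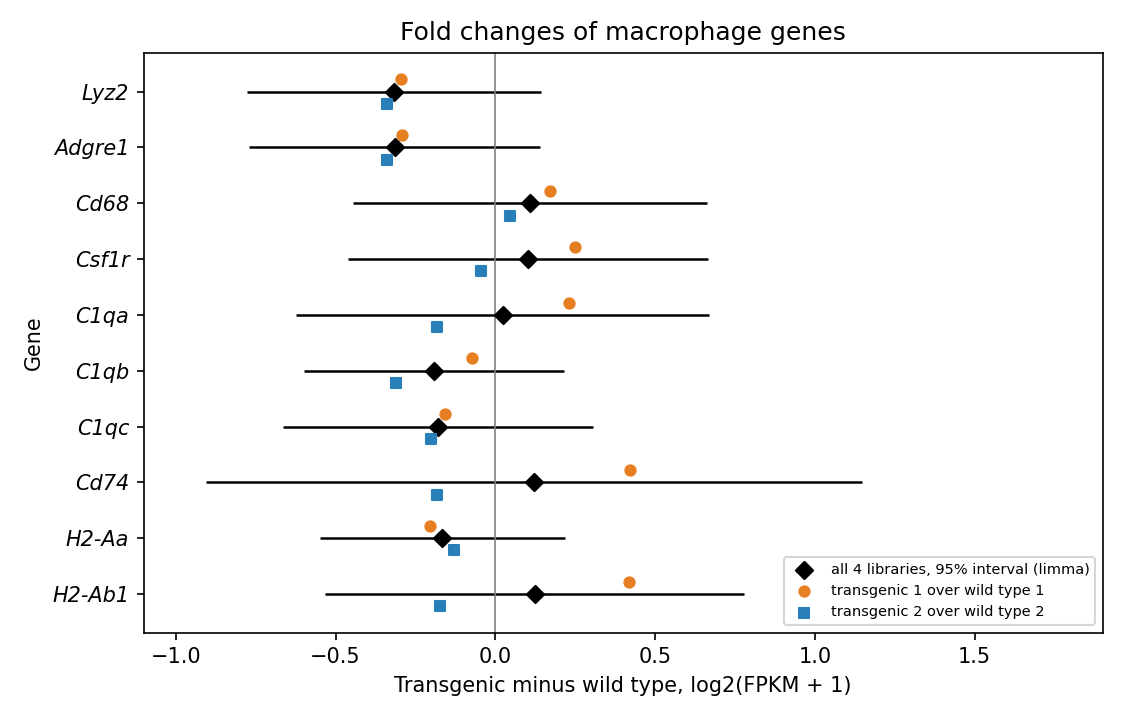
Difference in log2(FPKM + 1), transgenic minus wild type, for each macrophage gene over all 4 libraries (diamonds, with limma's 95% interval) and within number 1 (circles) and number 2 (squares). Every interval holds 0, and Lyz2, Adgre1, C1qb, C1qc and H2-Aa lie left of 0 in both numbers.

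The summed level of the 10 genes was 193 and 156 FPKM in transgenic 1 and 2 and 168 and 179 FPKM in wild type 1 and 2. The means, 174 ± 26.0 and 174 ± 7.92 FPKM (SD, n = 2 each), had a ratio of 1.00. Class II genes held 65.5% and 56.2% of this sum in transgenic and 61.8% and 55.0% in wild-type libraries. The 4 lineage genes held 7.54% and 7.21% in transgenic and 9.78% and 7.82% in wild-type libraries. These shares do not overlap, but the level of the 4 genes does, at 14.5 and 11.3 FPKM summed in transgenic and 16.4 and 14.0 FPKM in wild-type libraries.

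Between library numbers all 10 macrophage genes had the same direction in both genotypes, with 6 higher and 4 lower in number 2. Of all genes compared 40.2% were higher and 38.8% lower in both genotypes, while 20.9% had opposite directions. Some of the 6 hardly differed in 1 genotype. The ratio of number 2 over 1 was 1.005 for C1qb and 1.01 for H2-Ab1 in transgenic libraries, and 1.01 for H2-Aa in wild-type ones. Cd74 was lower in number 2, at 40.4 and 46.0 FPKM in transgenic 2 and wild type 2, against 80.8 and 60.0 in transgenic 1 and wild type 1. In limma with genotype and number as terms it fell, by 0.68 ± 0.16 on the log2 scale (adjusted p = 0.0384). C1qc was higher in number 2 and rose by 0.29 ± 0.08 (limma adjusted p = 0.0484), at 5.27 and 6.21 FPKM against 4.20 and 4.79. The other 8 were not called, 2 of 10 in all, 1 higher and 1 lower. Of all genes compared 27.5% were called, 13.4% higher and 14.1% lower, so the share called is near the background. The call of C1qc ended once libraries were rescaled by their median ratio (adjusted p = 0.0522, limma), which left 1 gene called. Each gene alone left 1 degree of freedom for its error in this fit, so the p-values draw mostly on the variance of other genes.

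The genes below the threshold that lean the same way as Cd74 were Csf1r (-0.29 ± 0.12), Cd68 (-0.30 ± 0.11) and Lyz2 (-0.25 ± 0.08), each lower in number 2. C1qa (0.35 ± 0.12) and H2-Ab1 (0.31 ± 0.16) had positive differences, those of Adgre1, C1qb and H2-Aa were between 0.05 and 0.13, and voom on the reads called 5 genes, where it called 43.6% of all genes compared (21.6% higher and 22% lower). Of the 5, Cd74 and Csf1r were lower and C1qa, C1qc and H2-Ab1 higher. Acinar markers differed between numbers too, with 9 of 9 compared called lower in number 2 (limma), and their part in the differences of Cd74, Csf1r, Cd68 and Lyz2 was not tested.

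Ratios within a library set the genes against each other without its scaling. Cd74 over H2-Ab1 was 1.92 and 1.93 in transgenic 2 and wild type 2, against 3.88 and 3.92 in transgenic 1 and wild type 1. Cd74 over C1qa was 1.00 and 1.00 in number 2 and 2.22 and 1.94 in number 1. In both ratios the genotypes lie close together within a number and the numbers lie far apart. Cd74 over H2-Aa differed between genotypes in number 1, at 3.28 in transgenic 1 and 2.11 in wild type 1. In transgenic 2 and wild type 2 it was 1.54 and 1.60. H2-Aa over H2-Ab1, chains that pair with each other in the protein, was 1.18 and 1.25 in transgenic libraries, and 1.86 and 1.21 in wild type 1 and 2, so wild type 1 stood alone. C1qa over C1qb was 3.19 and 3.52 in transgenic and 2.56 and 3.17 in wild-type libraries, and C1qb over C1qc was 2.72 and 2.17 against 2.51 and 2.33, although the protein holds the 3 chains in equal number. Csf1r over Adgre1 was 2.61 and 1.56 in transgenic and 1.36 and 1.06 in wild-type libraries.

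**Figure D4:**
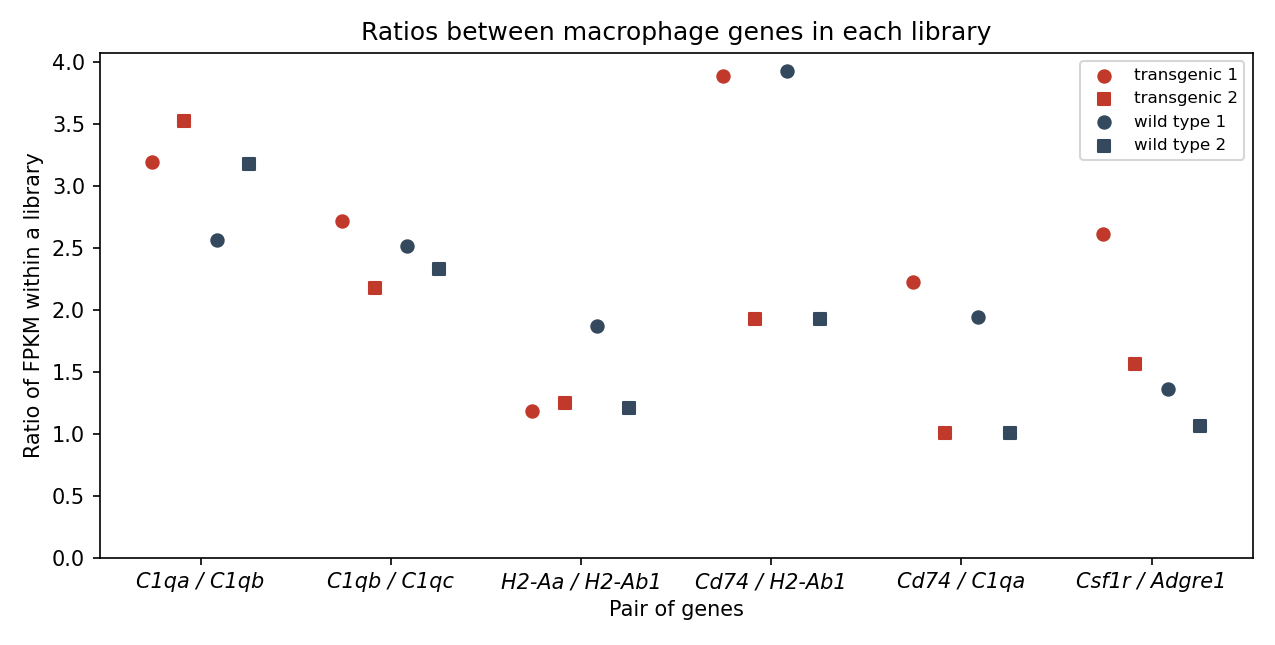
Ratio of the FPKM of pairs of macrophage genes within each library, for transgenic 1 and 2 (red) and wild type 1 and 2 (blue). Cd74 over H2-Ab1 and Cd74 over C1qa differ between numbers and hardly between genotypes, and Csf1r over Adgre1 is higher in transgenic libraries of both numbers.

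The 10 genes were also set beside 10779 of the other genes compared, by their pattern over the 4 libraries. Predicted gene models and genes that varied much less than the mean profile of the 10 were left out. Likeness was the Euclidean distance between values of log2(FPKM + 1) centred on each gene's mean, measured from the mean profile of the 10. H2-Aa and C1qb were the nearest members, at a distance of 0.20 each, yet 1834 and 1838 of 10779 other genes were nearer. Cd74 was the farthest, at 0.70, with 9880 genes nearer. Malt1, Ppp4r1l-ps, Atmin, Tbl1xr1, Sprtn and Tmed7 had the most similar values, at distances of 0.01 to 0.03. This is a description over 4 libraries, in which a nearly flat mean profile is matched by many genes.

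Of the other macrophage and monocyte genes 10 of 30 were high enough to be compared between genotypes, and 0 were called in either direction (limma). In both numbers 1 was higher and 2 were lower, and 7 had opposite directions. Their median log2 fold change was -0.06, against 0.01 over all genes. Mpeg1, which encodes the pore-forming perforin-2 of phagocytes, lay at 2.30 and 2.28 FPKM in transgenic libraries and 2.67 and 3.15 in wild-type ones, which did not overlap (-0.25 ± 0.14). Axl, a receptor for dying cells, was at 2.48 and 2.29 FPKM against 1.55 and 2.15, also without overlap (0.26 ± 0.17). Lyve1, a hyaluronan receptor that lymphatic vessels share, had 3.97 and 6.33 FPKM in transgenic and 6.99 and 5.76 in wild-type libraries. Among the genes that limma called between numbers, Tyrobp and Fcer1g were higher and Cd14 lower in number 2. Tyrobp and Fcer1g encode adaptors that pass on signals from immune receptors, and Cd14 encodes a receptor for bacterial lipopolysaccharide.

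In the rest of the class II pathway, 9 of 16 genes were compared and 0 called between genotypes (limma, median log2 fold change -0.03). Rfxap, a subunit of the factor that binds the X box, lay at 8.86 and 8.62 FPKM in transgenic and 7.36 and 6.86 in wild-type libraries, without overlap (0.26 ± 0.12). The invariant chain protease gene Ctss was at 15.9 and 17.7 FPKM in transgenic and 18.6 and 22.7 in wild-type libraries, again without overlap and in the other direction (-0.28 ± 0.17). H2-Eb1, a chain of the class II molecules, had 47.0 and 34.3 FPKM in transgenic and 47.4 and 39.9 in wild-type libraries. Ciita, the master regulator of class II transcription, was low, at 0.0849 to 0.106 FPKM in transgenic and 0.0879 to 0.113 in wild-type libraries.

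Cytokine and chemokine genes that activated macrophages express were also compared. Of 18, 8 were compared and 0 called between genotypes (limma, median 0.09), while 5 were called lower in number 2, where 14.1% of all genes compared were. Cxcl2, which attracts neutrophils, lay at 1.31 and 0.877 FPKM in transgenic 2 and wild type 2, against 7.30 and 6.06 in transgenic 1 and wild type 1, and fell by 1.88 ± 0.08 on the log2 scale (limma adjusted p = 0.00148). Ccl4 lay at 2.88 and 2.75 FPKM in number 2 and 11.5 and 8.70 in number 1, and Tnf at 0.987 and 0.541 against 3.60 and 2.89. Ccl3 and Il1a were the other calls, and Il1b (-0.09), Cxcl16 (-0.19) and Pdgfb (0.15) were not called. Tnf and Il1a reached 1 FPKM only in the libraries numbered 1, so their place among the genes compared is tied to this direction. Csf1, the main ligand of the Csf1r receptor, was lower in number 2 as well, at 2.61 and 2.23 FPKM against 4.72 and 4.24 (-0.68 ± 0.08, limma adjusted p = 0.00954). These genes are not particular to macrophages, and their cell of origin cannot be told apart in whole islets.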

How the data were processed

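The deposited values were FPKM per gene in 4 islet libraries, made by the authors. HTSeq 0.6.0 and GRCm38 are named, per the submitters' processing notes, and per the labels' protocols RNA was taken up in Trizol and made into TruSeq total RNA libraries. No aligner was named in the sources used here. The deposited FPKM times gene length gave whole reads for 100% of values, within 0.001 read. Depth was 21670854 to 27080907 reads in genes, 0 rows had no gene name and 0 columns were of another series.

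Genes with at least 1 FPKM in at least 2 libraries (12716) were tested on log2(FPKM + 1) with limma 3.58.1 (trend) in R 4.3.3, with genotype alone as the main design, 2-sided, with Benjamini-Hochberg adjustment over all of them and a threshold of 0.05. The number contrast added library number as a term. Alternatives were another pseudocount (0.1), filter, scaling, voom in limma on the recovered reads, a replicate block, removal of a GC curve and leaving out each library. The fits were also run on simulated data, which held a genotype effect but, unlike these data, no difference between library numbers. Sequence searches used RefSeq tables and GENCODE M21. The macrophage genes and the lists beside them were chosen with earlier results of these data known. Outside the macrophage genes, the 4 genes of each list with the lowest limma p, any called gene and the 6 nearest profiles were eligible to be named, and low markers were given to check the cell types. Flt3, Zbtb46, Cx3cr1, Mertk, Ccr2, Itgam, Siglec1, Folr2, Cd163, Cd79a, H2-Eb1, Ciita, Csf2rb and the chemokine examples were chosen after their values were seen. Some genes of the lists are not reported here.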

Additional observations from a re-analysis of the deposited data

How the results depend on the processing

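None of the 10 macrophage genes was called between genotypes under any alternative run on all 4 libraries. Of 127 pairs of gene and alternative, leaving out a library included, 116 kept their direction and 11 turned it, in 5 genes. Changing the filter or adding the replicate block in limma leaves the fold change itself as it was, so those pairs could not turn. With 1 library left out, log2 fold changes ran from -0.073 to 0.29 for Cd68, from -0.12 to 0.32 for Csf1r, from -0.26 to 0.30 for C1qa, from -0.37 to 0.61 for Cd74 and from -0.18 to 0.43 for H2-Ab1, where the lone library is assumed to vary like the other group. Cd74 turned without transgenic 1 (-0.37) and without wild type 2 (-0.07), Cd68 without the same libraries (-0.073 and -0.011), Csf1r without transgenic 1 (-0.12), C1qa without wild type 1 (-0.26) and transgenic 2 (-0.05), and H2-Ab1 without wild type 1 (-0.18). The 5 genes lower in both numbers kept their sign. For Lyz2, Adgre1, C1qb and H2-Aa leaving out a library could not turn it, as their groups do not overlap. Folds ran from -0.45 to -0.18 for Lyz2, -0.35 to -0.28 for Adgre1 and -0.31 to -0.070 for C1qb. They ran from -0.34 to -0.021 for C1qc and from -0.21 to -0.12 for H2-Aa. C1qb (-0.070) and C1qc (-0.021) came nearest to 0 without wild type 2, C1qc was also at -0.043 without transgenic 1, and Lyz2 was at -0.18 without transgenic 2 and -0.20 without wild type 1. Their median ran from -0.19 to -0.045, and was -0.17 with the filter of 5 FPKM, which keeps 7 of the 10. The ratio of summed FPKM ran from 0.899, without transgenic 1, to 1.11.

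Libraries of the same number deviated together, with a correlation of 0.775, but 2 pairs do not establish the numbers as a pairing. With the replicate block, limma called 0 of all genes and voom 238 (1.87%), of which 0 were macrophage genes and 9 were acinar markers, all 9 compared and all higher in transgenic islets. With the block and the GC curve removed voom called 111 (0.873%) and 0 macrophage genes, with 8 acinar markers higher, the macrophage genes' median was -0.16, and C1qa (-0.19), Cd74 (-0.021) and H2-Ab1 (-0.045) turned. Leaving out a library gave 0 to 0 genes called. Between numbers, the 2 macrophage genes called became 4 with the filter of 5 FPKM, 1 with median ratio scaling, 5 by voom with the replicate block and 1 with number as the only term, without the block. They became 6 by voom with the block and the GC curve removed, an alternative chosen after seeing the data that called 44.4% of all genes. The cause of these changes was not tested. Depth limits Adgre1 and Cd68 most, with 36 to 119 reads a library.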

Other observations

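Growth factors that keep macrophages alive and their receptors were mostly low, with 2 of 7 genes high enough to be compared and 0 called between genotypes (limma). Csf2ra, a receptor chain for the granulocyte-macrophage factor, lay at 36.0 and 44.4 FPKM in transgenic 1 and 2, against 27.7 and 37.1 in wild type 1 and 2, higher in the transgenic library of each number but overlapping across them (0.31 ± 0.22). Il34, the second ligand of the Csf1r receptor, was at 0.634 and 0.753 FPKM in transgenic and 0.791 and 0.650 in wild-type libraries. Csf2 had 0 reads throughout, and Csf2rb, another receptor chain gene of the list, was at 0.0392 to 0.0586 FPKM. The cell of origin of Csf2ra was not tested.

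Lysosomal genes, which all islet cells express, were all compared, 16 of 16, with 0 called and a median log2 fold change of -0.02 between genotypes (limma). Psap, the precursor of the saposins, was at 376 and 322 FPKM in transgenic and 278 and 313 in wild-type libraries, without overlap (0.24 ± 0.20). Of other complement genes 8 of 17 were compared and 0 called, with a median of 0.05. Calr, an endoplasmic reticulum chaperone that binds C1q, lay at 206 and 198 FPKM in transgenic 2 and wild type 2, against 771 and 666 in transgenic 1 and wild type 1, and fell by 1.82 ± 0.09 on the log2 scale (limma adjusted p = 0.00161).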
